A study of Mus musculus with 12 samples.

Results

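Swapping the places of 2 proteins around an internal ribosome entry site (IRES) was compared at the level of mRNA. Mouse embryonic fibroblasts of the Hb9::GFP genotype, primary cells that carry a motor neuron reporter, were infected with retroviruses and driven towards induced motor neurons. The group called SDDIR received a cassette with SNAP-tagged p53DD before the IRES and HRAS(G12V) after it, and the group called RISDD received HRAS(G12V) before the IRES and SNAP-tagged p53DD after it. Both groups also received the factors Neurog2, Isl1 and Lhx3 on one 2A-linked virus (NIL), were moved to N3 medium with RepSox on day 3, and were sorted as SNAP-positive cells on day 4. These 5 libraries (3 of RISDD and 2 of SDDIR) were chosen by their labels from the 11 used. The remaining 6 were 3 SDD libraries (the same factors, RepSox and sort, with SNAP-p53DD and no HRAS) and 3 NIL libraries (the factors alone, no RepSox, sorted as live single cells). The labels give 3 SDDIR samples, of which 1 was not analysed here, because its column could not be told from that of SDDIR B.

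An IRES lets a ribosome start inside a message, and the protein encoded after it is usually made in smaller amounts than the one encoded before it, although both come from the same RNA. HRAS(G12V) is a form of the small GTPase HRAS that stays bound to GTP and signals through RAF, MEK and ERK kinases to growth-linked transcription. p53DD is a truncated p53 that joins the cell's own p53 into inactive complexes, so that p53 target genes are less induced. The cassettes therefore carry the same parts in either order, and the count table reports RNA and no protein.

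Values are normalised read counts per gene, and the depth behind them was 14872639 to 23385212 recovered reads per library in these 5 libraries and up to 29815073 in the others. SDD, SDDIR and RISDD did not overlap on the leading principal component of these 3 groups (70.8% of the variance). SDD lay at -107 to -86.2, SDDIR at 14.3 to 20.1 and RISDD at 82.5 to 86.0. The library NIL C stood apart from the other 2 NIL libraries, with 0.537% of its signal on mitochondrial genes against 3.62% and 4.00%. It takes no part in the difference between RISDD and SDDIR, but it shares their estimate of spread, so counts are also given without it. Nothing in the labels says that libraries of a group came from separate cultures, so p-values measure the spread between these libraries only.

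Of 14556 genes tested, 1379 (9.47%) differed between RISDD and SDDIR at an adjusted p under 0.05 (limma, Benjamini-Hochberg over all tested genes). Of these, 664 (4.56%) were higher in RISDD and 715 (4.91%) were lower. A total of 911 differed at least 2-fold, and the median log2 difference of all tested genes was 0.01. Without NIL C the count was 4190, and leaving out a RISDD or SDDIR library gave 302 (without SDDIR A) to 715 (without RISDD A). The levels of RISDD and SDDIR libraries did not overlap for 8655 genes (59.5%), with 2 libraries on one side: RISDD lay above for 4484 (30.8%) and below for 4171 (28.7%). In bulk RNA, fewer cells of a kind and less RNA per cell cannot be told apart.

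The rows of the delivered genes were read first, as a check of the labels. *Trp53*, which also counts the p53DD transgene, held 2873, 3058 and 3674 normalised counts in NIL A to C. The 2 SDDIR libraries held 29277 and 37068 and the 3 RISDD libraries 43128, 44579 and 46185, so every library with p53DD lay above every library without it. The RISDD libraries were 1.35-fold above SDDIR, a difference that did not pass (limma, adjusted p = 0.118; 0.0188 without NIL C).

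*Hras* counts were 911 and 933 in SDDIR, 1234.3, 1093 and 1088 in RISDD, and 830, 905 and 981 in SDD. The 3 RISDD libraries lay above the 2 SDDIR libraries by 1.23-fold (limma, adjusted p = 0.562; 0.0376 without NIL C), while NIL A, B and C, with no HRAS virus, held 1238, 1129 and 2342, the last the highest of the 11 libraries. The row thus did not separate the groups that received HRAS(G12V) from those that did not, and it gives no measure of how much of the cassette's RNA each group carried. *Neurog2*, *Isl1* and *Lhx3*, the 3 programming factors, were 1.29-fold, 1.30-fold and 1.27-fold higher in RISDD, and none of the 5 delivered rows passed (limma; 1 at an unadjusted p under 0.05; edgeR and DESeq2 called 0 each). SDDIR A was the lower of the SDDIR libraries in all 5 rows, with 74614 against 95718 for *Isl1*. Without NIL C, 3 of the 5 passed.

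**Figure D1:**
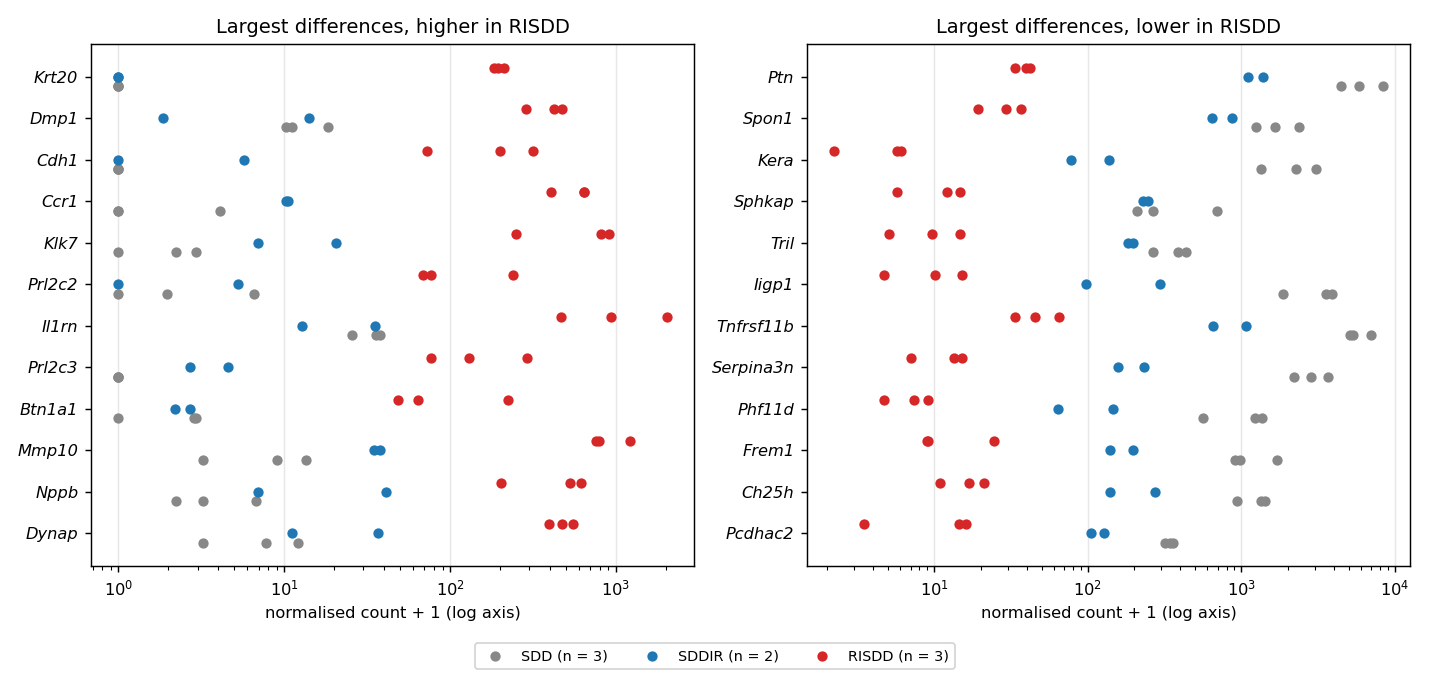
Normalised counts plus 1 (log axis) of the 12 genes with the largest passing differences in each direction, one point per library, for SDD, SDDIR and RISDD. The 24 genes were picked only among genes in which the 3 RISDD libraries lie outside the range of the 2 SDDIR libraries.

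The 12 largest differences towards RISDD were in genes that held at most 40.3 counts in either SDDIR library. *Krt20*, a keratin of intestinal and urinary epithelium, held 183, 211 and 193 counts in RISDD A to C and 0 in both SDDIR and all 3 SDD libraries. With a floor of 3 reads for the SDDIR group it was at least 55.0-fold higher in RISDD (limma, adjusted p = 0.000826, range over all alternatives 1.09e-06 to 0.0155). *Cdh1*, which encodes E-cadherin of epithelial junctions, held 71.7, 314 and 198 counts in RISDD against 0 and 4.74 in SDDIR, and was 69.2-fold higher on the log2(value + 1) scale (log2 difference 6.11, SE 0.90). *Klk7*, a skin protease, held 250, 811 and 907 against 19.5 and 5.93. All 3 genes passed under every alternative.

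*Dmp1*, a matrix phosphoprotein of bone and dentine, held 423, 473 and 288 counts in RISDD against 0.847 and 13.0 in SDDIR. *Ccr1*, a chemokine receptor, held 407, 639 and 642 against 9.32 and 9.48, a log2 difference of 5.73 (SE 0.73). *Il1rn*, the antagonist of the interleukin-1 receptor, held 466, 2026 and 929 against 11.9 and 34.4. Like all the largest differences, these 3 were picked only among genes in which RISDD and SDDIR did not overlap.

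*Prl2c2* and *Prl2c3*, prolactin-family genes of placenta, were 47.3-fold and 40.6-fold higher in RISDD. They are near-identical copies, so how reads were shared between them is uncertain. *Btn1a1*, a milk-fat butyrophilin, rested on 3 SDDIR reads against 332 RISDD reads, a ratio of 73.1 with a 95% exact counting interval of 24.8 to 356. That interval covers counting alone and not the spread between libraries, which held 63.1, 223 and 47.4 counts in RISDD A to C. The call for *Prl2c2* was lost without any one of the RISDD or SDDIR libraries, without SDD B and with edgeR (adjusted p 0.0538 to 0.249; 0.00316 to 0.249 over all alternatives), and that for *Prl2c3* without RISDD B, RISDD C, SDDIR A or SDDIR B (0.0545 to 0.146; 9.16e-05 to 0.146 over all). *Il1rn*, *Nppb* and *Dynap* lost theirs without SDDIR A (adjusted p 0.0747 for *Il1rn* and 0.0668 for *Dynap*), *Nppb* also without RISDD B or C (0.0579 to 0.158).

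The largest difference towards SDDIR was in *Ptn*. *Ptn*, a heparin-binding growth factor, held 1390 and 1101 counts in SDDIR against 40.8, 32.4 and 38.7 in RISDD, a 32.5-fold difference (log2 difference -5.02, SE 0.24; limma, adjusted p = 1.08e-05). *Spon1*, a secreted guidance and adhesion protein, held 863 and 645 against 35.9, 28.3 and 18.2. *Tnfrsf11b*, the decoy receptor osteoprotegerin, held 1076 and 650 against 64.3, 32.4 and 44.3. These 3 genes were higher still in SDD, where *Ptn* held 8348, 4424 and 5848 counts, so that RISDD stood farthest from the libraries without HRAS.

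*Kera*, a proteoglycan of cornea and connective tissue, held 136 and 77.1 counts in SDDIR and 1.24, 5.06 and 4.74 in RISDD. *Serpina3n*, a secreted protease inhibitor, held 232 and 155 against 12.4, 6.07 and 14.2, and *Frem1*, a basement membrane protein, 196 and 138 against 23.5, 8.09 and 7.90. *Sphkap* differed from these in that SDDIR overlapped SDD. *Sphkap*, an anchor of protein kinase A, held 692, 265 and 209 counts in SDD, 246 and 226 in SDDIR and 13.6, 11.1 and 4.74 in RISDD. All 12 of the largest falls passed under every alternative except *Iigp1*, which did not pass without SDDIR A (limma, adjusted p = 0.0737; 4.88e-09 to 0.0737 over all alternatives).

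**Figure D2:**
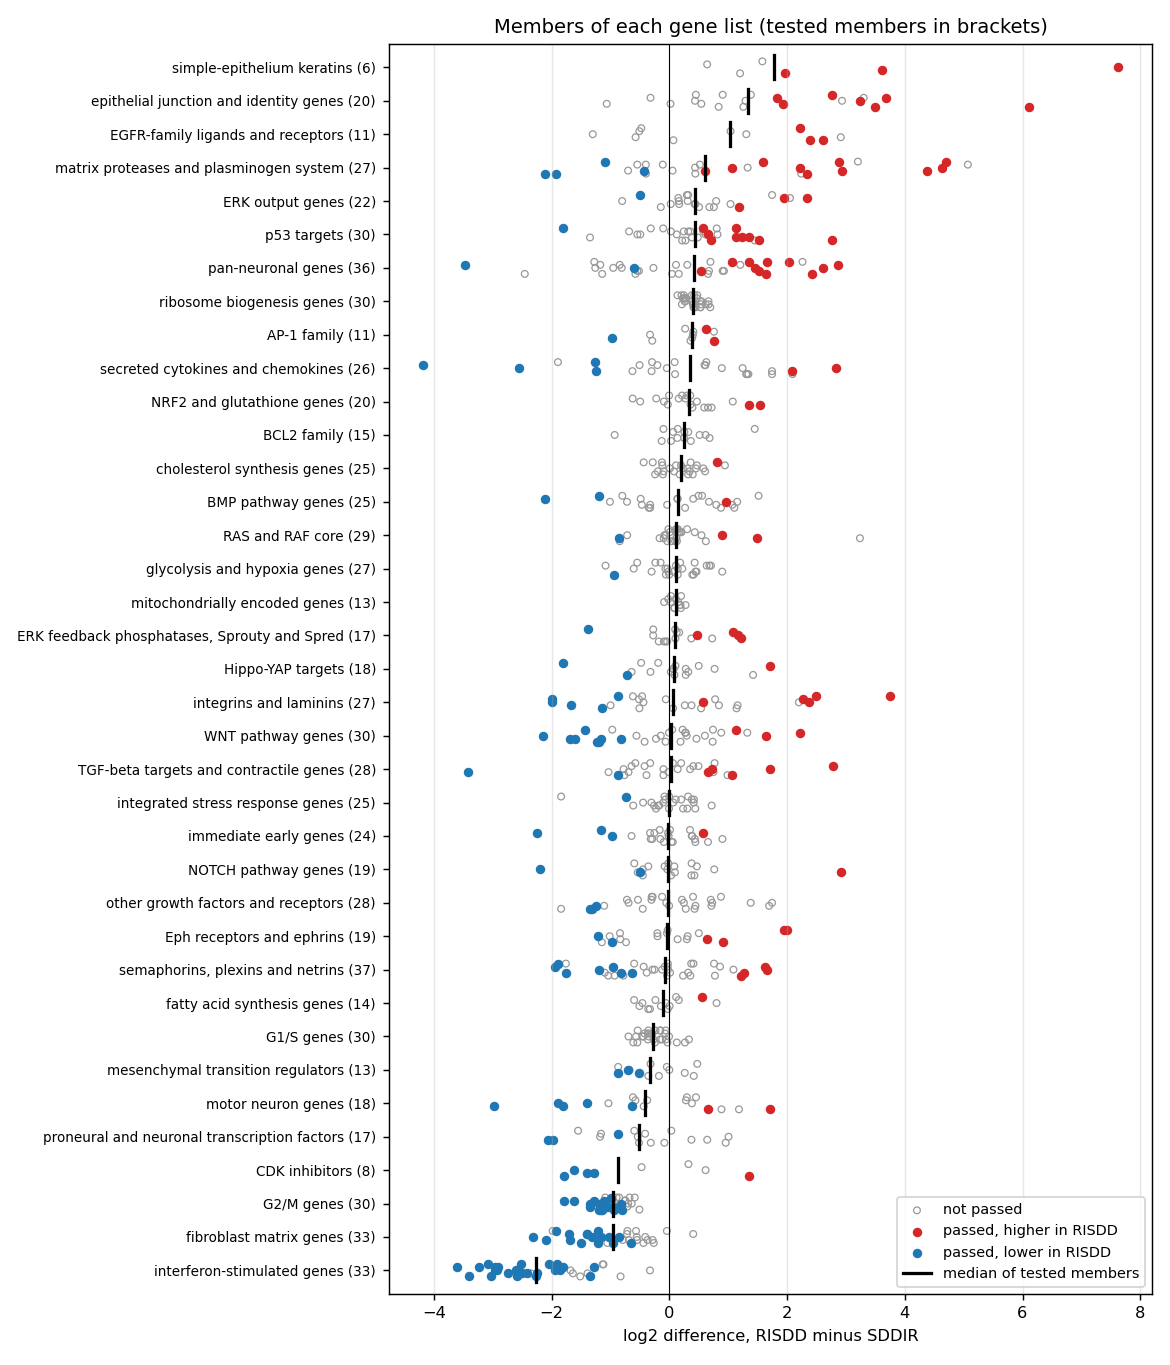
Log2 differences, RISDD minus SDDIR, of the tested members of each gene list, one point per gene; filled points passed (red higher, blue lower in RISDD) and black bars are medians. Keratins, junction genes and EGFR-family genes have the highest medians, and interferon-stimulated, fibroblast matrix and G2/M genes the lowest.

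Members of the lists outside the rule for naming genes, among them those given by a log2 difference alone, were chosen after their values were seen.

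Negative regulators of ERK, the genes through which the pathway limits itself, moved in both directions. Of 17 tested phosphatase, Sprouty and Spred genes, 4 were higher in RISDD and 1 was lower, against 9.47% of all tested genes changed in either direction, and the median log2 difference was 0.10. *Dusp5*, a nuclear ERK phosphatase, held 10551, 10819 and 10296 counts in RISDD, 4939 and 4185 in SDDIR and 520, 633 and 516 in SDD. The groups did not overlap, and the RISDD level was 2.32-fold that of SDDIR (log2 difference 1.21, SE 0.19; limma, adjusted p = 0.00429). *Spred3*, an inhibitor of RAF activation, held 2204, 2190 and 2120 against 1029 and 1026, and *Dusp14*, another phosphatase, 402, 459 and 498 against 208 and 192.

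*Spry1*, a Sprouty inhibitor of receptor signalling, went the other way, with 1478 and 1263 counts in SDDIR against 601, 531 and 449 in RISDD. *Dusp6*, the cytoplasmic ERK phosphatase, did not pass. It held 6569 and 5580 counts in SDDIR and 5081, 5124 and 4806 in RISDD, with 3765, 3816 and 3230 in SDD (log2 difference -0.28; limma, adjusted p = 0.211; 0.049 without NIL C). *Dusp4* at 6587 and 6697 against 6018, 5580 and 5995, and *Spry4* at 5781 and 6154 against 7418, 7743 and 8014, also did not pass. *Dusp6*, *Dusp4* and *Spry4* were chosen after their values were seen. *Dusp5* lost its call without SDDIR B (limma, adjusted p = 0.0544), *Spry1* and *Spred3* without SDDIR A (0.0843 and 0.0505) and *Dusp14* without either (0.0652 to 0.0712). Without SDDIR A 1 member of the list was higher and 0 were lower, and without SDDIR B 1 and 1.

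Of 22 ERK output genes, 3 were higher and 1 was lower (4.56% and 4.91% of all tested genes). Their median log2 difference was 0.44. *Plaur*, the urokinase receptor, held 2827, 2997 and 3026 counts in RISDD against 544 and 627 in SDDIR (5.04-fold; limma, adjusted p = 0.00472). *Epha2*, an ephrin receptor, held 3543, 3418 and 3636 against 849 and 984, and *Mapk6*, an atypical MAP kinase, 23976, 25740 and 25505 against 10926 and 11094. In all 3 genes SDD lay below SDDIR, with 141 to 305 counts of *Plaur*. *Etv5*, an ETS factor induced by ERK, held 2465 and 2612 counts in SDDIR and 1709, 1835 and 1850 in RISDD, which was close to the 1566 to 1810 of SDD (log2 difference -0.50, SE 0.12; limma, adjusted p = 0.0333).

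The *Etv5* call was lost without a low-value filter and without SDD C or any one RISDD or SDDIR library (0.0556 to 0.215; 0.000515 to 0.215 over all alternatives), *Plaur* without SDDIR A (0.0652) and *Epha2* without SDDIR A or B (0.0669 to 0.11). *Ccnd1*, cyclin D1, and *Myc* had log2 differences of -0.15 and 0.02 and did not pass.

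Of 24 immediate early genes, which respond within minutes of a signal, 1 was higher and 3 were lower (median log2 difference -0.02). Among all tested genes 4.56% were called higher and 4.91% lower. *Fos*, a subunit of the factor AP-1, held 1567 and 1257 counts in SDDIR and 711, 663 and 758 in RISDD, down from 4212 to 8298 in SDD. *Egr2*, a zinc-finger factor, held 661 and 483 against 203, 236 and 332. *Klf10* was higher, with 1364, 1404 and 1345 counts in RISDD against 967 and 889. SDDIR A lay above SDDIR B in all 24 members, and without any one of RISDD A, RISDD B, SDDIR A or SDDIR B no member passed (without RISDD C, 1 was lower). Adjusted p over all alternatives ran from 0.000168 to 0.315 for *Fos*, 0.000736 to 0.206 for *Egr2* and 0.000563 to 0.244 for *Klf10* (limma and the count tools). Of 11 AP-1 genes, *Mafk* and *Mafg*, small MAF partners, were higher and *Fos* was lower. Both MAF calls were lost without any one of the RISDD or SDDIR libraries. The *Mafg* call was also lost without any one SDD library, with quantile scaling, without a low-value filter, and without trend and robust moderation.

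Several ligands of the EGF receptor family were higher in RISDD. Of 11 tested genes 3 passed, all higher (4.56% of all tested genes were higher). The list's median log2 difference was 1.04. *Areg*, amphiregulin, held 16220, 16910 and 18136 counts in RISDD against 2636 and 2992 in SDDIR and 231, 377 and 402 in SDD (6.08-fold above SDDIR, SE 0.25 on the log2 scale; limma, adjusted p = 0.000508). *Nrg1*, neuregulin 1, held 1187, 1840 and 1295 against 254 and 359, and *Tgfa*, transforming growth factor alpha, 125, 137 and 199 against 40.7 and 19.0. RISDD and SDDIR did not overlap in any of the 3. *Areg* and *Nrg1* passed under every alternative, and *Tgfa* did not pass without RISDD B, RISDD C, SDDIR A or SDDIR B (limma, adjusted p 0.0539 to 0.169; 0.000212 to 0.169 over all). Of other ligands, *Btc* (log2 difference 2.91), *Ereg* (1.31) and *Hbegf* (1.04) did not pass, nor did the receptors *Egfr* (-0.51) and *Erbb2* (-0.48), which were lower without NIL C (limma, adjusted p 0.0126 and 0.04).

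Genes of matrix breakdown and cell-surface proteolysis were among those with the most members higher in RISDD. Of 27 tested proteases, inhibitors and plasminogen genes 10 were higher and 4 lower (against 4.56% and 4.91% of all tested genes), with a median log2 difference of 0.61. *Plau*, urokinase, held 6012, 5596 and 4772 counts in RISDD, 763 and 708 in SDDIR and 304, 386 and 348 in SDD (7.39-fold above SDDIR; log2 difference 2.88, SE 0.29; limma, adjusted p = 0.000521). *Mmp3*, stromelysin 1, held 8216, 11081 and 8616 against 1099 and 1315, and *Mmp10*, stromelysin 2, 785, 1222 and 756 against 33.9 and 36.8. *Serpinb2*, an inhibitor of urokinase, held 172, 348 and 199 against 5.93 and 16.6.

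The lower members were *Adamts5*, *Adam12*, *Adamts4* and *Adam19*, metalloproteases of the ADAM families, with log2 differences of -2.11, -1.93, -1.10 and -0.43. *Mmp1a* and *Mmp1b* are near-identical copies and their levels are uncertain. *Mmp1b* held 12.4, 52.6 and 23.7 counts in RISDD and 0 in both SDDIR libraries, and *Mmp1a* 129, 427 and 236 against 5.08 and 7.11, which did not pass (limma, adjusted p = 0.0597; 0.00066 without NIL C). *Mmp10*, *Mmp3* and *Serpinb2* lost their calls without SDDIR A or SDDIR B (0.0544 to 0.0744 for *Mmp10*, 0.0662 to 0.103 for *Mmp3*), *Serpinb2* also without RISDD B (0.0527 to 0.153). The counts of the list, higher and lower, were 2 and 3 without SDDIR A, 3 and 1 without SDDIR B, 8 and 3 without RISDD A or C, 6 and 3 without RISDD B and 14 and 5 without NIL C.

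Promoters of these genes were searched for the AP-1 site TGANTCA, on both strands, since its letters are the same read either way apart from the middle base. RefSeq promoter windows of the GRCm38.p6 build, 300 bases long with 50 after the start site, were used. The count table itself was built on GRCm39, and genes were matched by symbol. The site was in 10 of 22 promoters of the list (45.5%), in 7.81% of all 32851 promoters and in 5.49% of those of tested genes. It was also in 9 of 29 promoters of the interferon-stimulated list described below (31%), whose called members were lower in RISDD, and in 0 of 27 promoters of the G2/M list. It was in 16.2% of the promoters of genes at least 2-fold higher in RISDD and in 6.74% of those at least 2-fold lower. Of 9 genes of the list with the site, 5 were higher and 1 was lower, and of 9 without it 2 were higher. A match describes letters in a window and not a site in use. The windows below, from genes that passed, show the site in capitals, 5′ to 3′ along the gene. They lie at chr9:7388067-7388166 (minus strand, *Mmp1b*), chr9:7502232-7502331 (plus, *Mmp10*) and chr9:7445729-7445828 (plus, *Mmp3*).
Mmp1b: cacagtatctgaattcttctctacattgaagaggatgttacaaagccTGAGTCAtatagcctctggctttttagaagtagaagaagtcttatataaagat
Mmp10: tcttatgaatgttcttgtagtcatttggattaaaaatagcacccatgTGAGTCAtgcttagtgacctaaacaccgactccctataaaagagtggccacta
Mmp3: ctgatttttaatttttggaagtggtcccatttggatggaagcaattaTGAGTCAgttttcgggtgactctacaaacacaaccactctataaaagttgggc

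The 3 stromelysin and collagenase promoters share TGAGTCA. The site begins 93, 63 and 46 bases before the start site in the order listed.

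**Figure D3:**
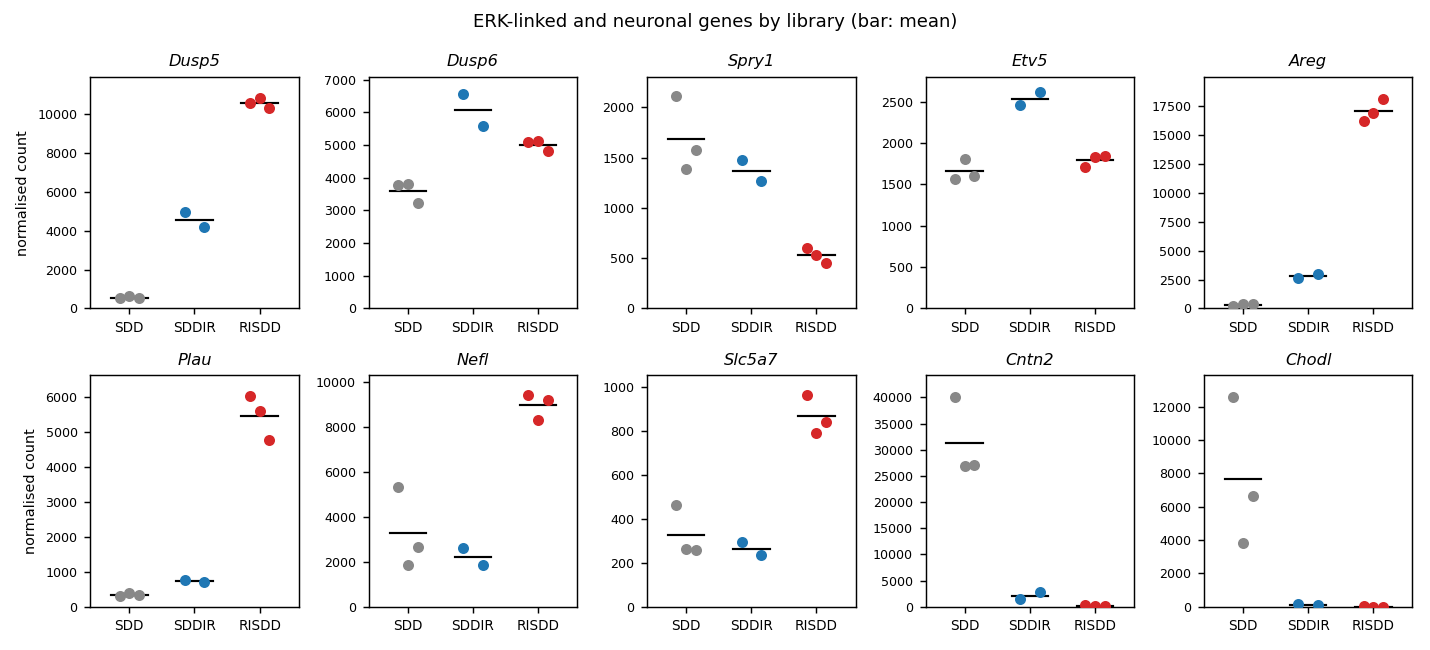
Normalised counts by library (points) with group means (bars) for 6 genes linked to ERK signalling or proteolysis and 4 neuronal genes, axes from 0. Dusp5, Areg, Plau, Nefl and Slc5a7 are highest in RISDD, Etv5 and Dusp6 are highest in SDDIR, and Cntn2 and Chodl are far lower in both HRAS groups than in SDD.

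Of 20 tested epithelial junction and identity genes, 7 were higher in RISDD and 0 lower, against 4.56% and 4.91% of all tested genes (limma; 11 and 0 at an unadjusted p under 0.05, 7 and 0 with edgeR, 10 and 0 with DESeq2), and their median log2 difference was 1.34. *Perp*, a desmosome component that is also a p53 target, held 307, 590 and 532 counts in RISDD against 67.8 and 65.2 in SDDIR. *Dsp*, desmoplakin, held 110, 206 and 175 against 39.0 and 42.7. NIL A to C held 175, 420 and 154 counts of *Perp* and 840, 882 and 864 of *Dsp*. *Krt18*, a keratin of simple epithelia, held 8402, 7632 and 6064 against 1621 and 2149, while SDD held 6.14 to 20.3. Its partner *Krt8* held 4070, 3934 and 2153 against 759 and 1560 and did not pass (limma, adjusted p = 0.15); it was chosen after its values were seen. Of 13 regulators of mesenchymal transition, *Snai2*, *Tcf4* and *Zeb1*, transcription factors of mesenchymal cells, were lower. *Snai2* held 334 and 258 counts in SDDIR and 176, 159 and 148 in RISDD.

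*Krt18*, *Snai2*, *Tcf4* and *Zeb1* were not called without any one of the RISDD or SDDIR libraries, and *Perp* not without SDDIR A or B. The *Snai2* call was also lost without SDD B. For *Zeb1* the call was also lost without NIL A or any one SDD library and without a low-value filter. It was lost too without trend and robust moderation, and with the replicate letter as a block. The count of higher junction genes was 2 without SDDIR A, 5 without SDDIR B, RISDD B or RISDD C, 6 without RISDD A and 14 without NIL C. The summed level of 10 epithelial markers was 8779 to 12824 in RISDD, 2449 to 3784 in SDDIR and 65.7 to 77.8 in SDD, and in RISDD and SDDIR most of it was *Krt8* and *Krt18*. *Epcam* held 51.6 to 71.7 counts in RISDD and *Esrp1* 0 to 3.95, and whether other cells took part was not tested.

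Of 27 integrins and laminins 5 were higher and 5 lower (4.56% and 4.91% of all tested genes), with a median log2 difference of 0.06. Without SDDIR A, or without SDDIR B, 3 were higher and 2 lower. *Lamb3*, a chain of epithelial laminin, held 129, 172 and 152 counts in RISDD against 11.01 and 9.48 in SDDIR (13.4-fold; limma, adjusted p = 0.00233). *Itgb3*, the beta chain of the vitronectin receptor, held 2402, 2285 and 2574 against 473 and 462, and *Itga3*, a laminin receptor chain, 1082, 994 and 907 against 187 and 224. *Itga8*, a receptor for nephronectin, held 1124 and 1475 in SDDIR and 351, 317 and 304 in RISDD. *Lamb3*, *Itgb3* and *Itga3* passed under every alternative, and *Itga8* did not pass without SDDIR A or B (0.0547 to 0.0848; 2.5e-06 to 0.0848 over all).

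Of 33 tested fibroblast matrix genes, 16 were lower in RISDD and 0 higher (limma; 26 and 0 at an unadjusted p under 0.05, 15 and 0 with edgeR, 20 and 0 with DESeq2), with a median log2 difference of -0.96. Among all tested genes 4.91% were called lower and 4.56% higher. All 3 RISDD libraries lay below both SDDIR libraries in 29 of the 33 matrix genes, as they did for 28.7% of all tested genes. *Col1a1*, the major chain of type I collagen, held 19108 and 18958 counts in SDDIR and 5463, 6045 and 5956 in RISDD, down from 120210 to 156760 in SDD. *Lox*, the enzyme that crosslinks collagen, held 696 and 739 against 168, 226 and 176 (log2 difference -1.92, SE 0.16; limma, adjusted p = 0.000241), and *Col12a1*, a fibril-associated collagen, 1765 and 2124 against 414, 555 and 402. *Mfap4*, a microfibril protein, held 426 and 251 against 80.4, 58.7 and 56.9.

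The fibroblast markers summed to 86175 to 88835 in RISDD, 158750 to 164190 in SDDIR and 551120 to 684030 in SDD, with all 8 detected in every library. The count of lower matrix genes was 7 without SDDIR A, 10 without SDDIR B, 12 to 14 without a RISDD library and 26 without NIL C. *Col1a1* was not called without SDDIR A or B (limma, adjusted p 0.0513 to 0.0652) and *Mfap4* without SDDIR A (0.129; 4.13e-06 to 0.129 over all alternatives). Of 28 TGF-beta targets and contractile genes 5 were higher and 2 lower (4.56% and 4.91% of all tested genes), and without SDDIR A, or without SDDIR B, 1 was higher and 1 lower. *Tgfbi*, a matrix adaptor, held 1644, 2033 and 2751 counts in RISDD against 232 and 401, near its SDD level of 1891 to 3078, and *Col8a1*, a short-chain collagen, 100, 99.1 and 52.2 against 680 and 1104.

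Of 30 tested targets of p53, 9 were higher in RISDD and 1 was lower (4.56% and 4.91% of all tested genes). The other 20 did not pass, and the median log2 difference was 0.43. *Cdkn1a*, the cell cycle inhibitor p21, held 6426, 6779 and 6574 counts in RISDD, 2655 and 2517 in SDDIR and 2346, 4120 and 3201 in SDD. The RISDD libraries were 2.55-fold above SDDIR (log2 difference 1.35, SE 0.20; limma, adjusted p = 0.00284, 2.62e-08 to 0.0359 over all alternatives). *Ccng1*, cyclin G1, held 12155, 13698 and 11677 against 4131 and 4580, with 4696 to 4862 in SDD. *Tnfrsf10b*, a death receptor, held 800, 778 and 818 against 366 and 313. In these 3 genes every RISDD library lay above every SDDIR and SDD library. NIL A to C held 17159, 18067 and 20227 counts of *Cdkn1a*, above every RISDD library. They held 18710, 21005 and 7867 of *Ccng1* and 1072, 1442.5 and 892 of *Tnfrsf10b*.

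*Mdm2*, the ubiquitin ligase that degrades p53, held 6303, 6150 and 6811 counts in RISDD against 3119 and 2729 (log2 difference 1.14), and was chosen after its values were seen. *Phlda3*, an inhibitor of AKT (1.13), *Aen* (0.71), *Plk2* (0.66) and *Zmat3* (0.58) were also higher, and *Pltp*, a lipid transfer protein, was lower (-1.80). The death genes *Bax* (0.62), *Pmaip1* (1.45) and *Bbc3* (0.32) did not pass, and 0 of 15 BCL2 family genes passed (limma; 3 higher and 1 lower at an unadjusted p under 0.05, 0 with edgeR, 2 higher with DESeq2, 4 higher without NIL C). *Ccng1* was not called without any one of the RISDD or SDDIR libraries (limma, adjusted p 0.0526 to 0.149) and *Tnfrsf10b* without SDDIR A or B (0.0834 to 0.118). The counts of p53 targets, higher and lower, were 17 and 5 without NIL C, 2 and 0 without SDDIR A, 2 and 1 without SDDIR B, 4 and 1 without RISDD A or B and 5 and 1 without RISDD C.

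Of 30 G2/M genes, which act in mitosis, 17 were lower in RISDD and 0 higher (limma; 27 and 0 at an unadjusted p under 0.05, 18 and 0 with edgeR, 22 and 0 with DESeq2), the median log2 difference was -0.96, and the 3 RISDD libraries lay below both SDDIR libraries in all 30 (28.7% of all tested genes). Among all tested genes 4.91% were called lower and 4.56% higher. *Ccnb2*, cyclin B2, held 1122 and 953 counts in SDDIR and 416, 240 and 385 in RISDD. *Top2a*, the topoisomerase of dividing cells, held 11029 and 9520 against 4180, 3383 and 4526 (2.56-fold lower; log2 difference -1.36, SE 0.24; limma, adjusted p = 0.00671). *Nusap1*, a spindle protein, held 1138 and 1102 against 297, 299 and 386, and *Aurkb*, a mitotic kinase, 1216 and 1075 against 487, 359 and 522. SDD levels of these genes were near those of SDDIR, with 9398 to 12198 counts of *Top2a*. NIL A to C held 5639, 3294 and 3332 counts of *Top2a*, nearer to RISDD.

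Of 30 G1/S genes, 0 passed in either direction (limma; 5 were lower and 0 higher at an unadjusted p under 0.05, edgeR called 1 lower, DESeq2 called 3 lower), with a median log2 difference of -0.28. The RISDD libraries lay below both SDDIR libraries in 20 of the 30, as they did for 28.7% of all tested genes. Calls over all tested genes were 4.91% lower and 4.56% higher. The difference between the G2/M and G1/S lists was not tested. *Mcm6*, a subunit of the replicative helicase, held 4509 and 4304 counts in SDDIR and 3767, 3466 and 3507 in RISDD (limma, adjusted p = 0.306). Without NIL C 26 G2/M and 11 G1/S genes were lower. The G2/M count was 0 without SDDIR A, 1 without SDDIR B, 7 without RISDD A, 2 without RISDD B and 8 without RISDD C. *Top2a* was not called without SDDIR A, *Nusap1* not without SDDIR A or B, and *Ccnb2* not without SDDIR A, SDDIR B or RISDD B. The *Aurkb* call was lost without any one of the RISDD or SDDIR libraries, without SDD C, and without trend and robust moderation.

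Inhibitors of cyclin-dependent kinases did not move as a group. Of 8 tested genes *Cdkn1a* was higher, and *Cdkn2c*, *Cdkn3*, *Cdkn2d* and *Cdkn1b* were lower (4.56% and 4.91% of all tested genes). *Cdkn2c*, the INK4-family inhibitor p18, held 455 and 437 counts in SDDIR and 124, 117 and 144 in RISDD, against 1294 to 1867 in SDD. *Cdkn2a*, which encodes the INK4A and ARF proteins, held 3322 and 4684 in SDDIR, 3305, 2712 and 2563 in RISDD and 1283 to 1912 in SDD, and did not pass (limma, adjusted p = 0.33). It was chosen after its values were seen. *Cdkn2c* was not called without SDDIR A, and *Cdkn3* and *Cdkn2d* not without any one of the RISDD or SDDIR libraries. The *Cdkn2d* call was also lost without NIL A or any one SDD library, with quantile scaling, and without trend and robust moderation. Without SDDIR A no inhibitor was called lower.

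Promoters of G2/M genes were searched on both strands for TTTGAA and for CCAAT, the box of the factor NF-Y. TTTGAA is the core of the cell cycle homology region (CHR), at which regulatory complexes bind mitotic genes. It was in 21 of 27 G2/M promoters (77.8%), in 17.9% of all promoters and in 12.2% of those of tested genes. CCAAT was in 20 of 27 (74.1%), in 37.4% of all promoters and in 37.3% of those of tested genes. Among 20 G2/M genes with TTTGAA 11 were lower, and among 6 without it 2 were lower. The windows of *Ccnb2* (chr9:70421535-70421694, minus strand) and *Top2a* (chr11:99024170-99024329, minus strand) show the boxes in capitals, and a box on the other strand reads ATTGG or TTCAAA.
Ccnb2: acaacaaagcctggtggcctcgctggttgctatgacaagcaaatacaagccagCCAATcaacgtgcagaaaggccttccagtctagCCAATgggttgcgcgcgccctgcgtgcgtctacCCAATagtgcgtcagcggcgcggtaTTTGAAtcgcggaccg
Top2a: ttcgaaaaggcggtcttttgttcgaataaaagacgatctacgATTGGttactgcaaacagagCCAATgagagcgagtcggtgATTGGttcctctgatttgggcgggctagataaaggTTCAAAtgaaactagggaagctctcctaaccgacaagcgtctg

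Each window holds 3 CCAAT boxes upstream of 1 TTTGAA. The last CCAAT box begins 21 bases before the start site in *Ccnb2* and 58 before it in *Top2a*.

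**Figure D4:**
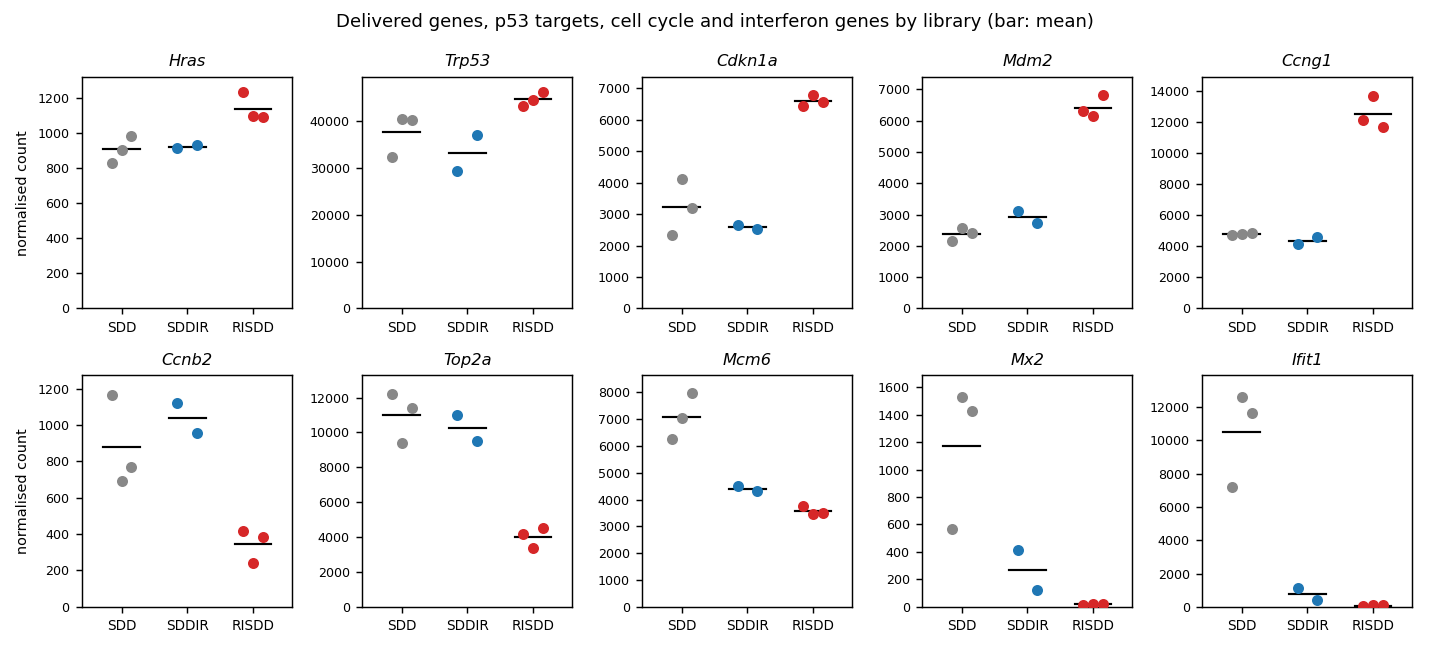
Normalised counts by library (points) with group means (bars) for 2 delivered genes, 3 p53 targets, 3 cell cycle genes and 2 interferon-linked genes, axes from 0. The p53 targets Cdkn1a, Mdm2 and Ccng1 are higher in all 3 RISDD libraries than in every SDD and SDDIR library, and Ccnb2 and Top2a are lower.

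Interferon-stimulated genes, the antiviral programme that interferon switches on, had the lowest median of the lists. Of 33 tested genes, 24 were lower in RISDD and 0 higher (limma; 29 and 0 at an unadjusted p under 0.05, 23 and 0 with edgeR, 28 and 0 with DESeq2), with a median log2 difference of -2.26. Among all tested genes 4.91% were called lower and 4.56% higher. *Ifit1*, an antiviral protein that binds foreign RNA, held 1130 and 420 counts in SDDIR and 37.1, 78.9 and 88.5 in RISDD. In SDD it held 7190, 12615 and 11648. Its RISDD level was 10.6-fold below SDDIR (log2 difference -3.41, SE 0.50; limma, adjusted p = 0.00297, 1.72e-10 to 0.0465 over all alternatives). *Mx2*, an antiviral GTPase, held 414 and 122 against 9.89, 22.2 and 23.7, *Oasl2*, an oligoadenylate synthetase-like protein, 855 and 270 against 28.4, 34.4 and 130, and *Trim30a*, 183 and 59.3 against 4.95, 17.2 and 16.6.

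The 2 SDDIR libraries differed from each other in this list more than in any other of the 38 gene lists. The 9 lists of cell type markers are not among these. SDDIR A lay above SDDIR B in all 33 members, by a median of 1.37 on the log2 scale, while all 3 RISDD libraries lay below both SDDIR libraries in 27 (28.7% of all tested genes). Leukocyte markers went the other way, with SDDIR A above SDDIR B in 0 of 14. Their median log2 difference, SDDIR A minus SDDIR B, was larger in size, at -1.93. They summed to 442 to 1129 in SDDIR, 1023 to 1943 in RISDD and 817 to 2033 in SDD. None of the 14 passed between RISDD and SDDIR (limma; 1 at an unadjusted p under 0.05, 0 with edgeR, 1 with DESeq2), and their part in the interferon result was not tested. The count of lower interferon genes was 1 without SDDIR A, 20 without SDDIR B, 7 without RISDD A, 9 without RISDD B, 17 without RISDD C and 27 without NIL C. *Mx2* and *Trim30a* were not called without SDDIR A (limma, adjusted p 0.089 and 0.176), and *Oasl2* was not called without SDDIR A, RISDD A or RISDD B or with only SDDIR and RISDD fitted (0.052 to 0.162).

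*Irf7*, which amplifies interferon production, held 620 and 245 counts in SDDIR and 54.4, 99.1 and 153 in RISDD, and was chosen after its values were seen. *Isg15*, a ubiquitin-like protein, held 1028 and 441 against 55.7, 144 and 282 and did not pass (limma, adjusted p = 0.0553; 0.04 without NIL C). Promoters were searched on both strands for GAAANNGAAA, the core of the interferon-stimulated response element. It was in 17 of 29 promoters of the list (58.6%) and in 3.44% of all promoters. Among 16 genes of the list with it, 10 were lower and 5 did not pass, and 1 was matched by an older symbol and had no test. Of 9 without it 5 were lower. Windows of 3 genes that passed are shown with the core in capitals, at chr19:34640759-34640858 (plus strand, *Ifit1*), chr19:34607758-34607857 (plus, *Ifit3b*, a near-identical copy of *Ifit3*) and chr5:92349040-92349139 (minus, *Cxcl10*). A core on the other strand is shown as its reverse complement.
Ifit1: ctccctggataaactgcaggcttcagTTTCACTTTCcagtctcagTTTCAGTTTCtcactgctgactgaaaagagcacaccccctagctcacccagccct
Ifit3b: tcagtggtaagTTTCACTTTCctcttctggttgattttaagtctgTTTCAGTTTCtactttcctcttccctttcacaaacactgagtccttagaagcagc
Cxcl10: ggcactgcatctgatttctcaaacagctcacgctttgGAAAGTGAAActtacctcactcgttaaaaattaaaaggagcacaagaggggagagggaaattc

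*Ifit1* and *Ifit3b* both carry the core as TTTCACTTTC and again as TTTCAGTTTC. *Cxcl10*, a chemokine, held 722 and 268 counts in SDDIR and 44.5, 62.7 and 64.8 in RISDD.

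Of 36 pan-neuronal genes, 11 were higher in RISDD and 2 lower (4.56% and 4.91% of all tested genes). Their median log2 difference was 0.42. *Nefl* and *Nefm*, the light and medium neurofilaments of axons, were among the higher. *Nefl* held 9411, 8284 and 9173 counts in RISDD, 2603 and 1851 in SDDIR and 1879 to 5326 in SDD (4.07-fold above SDDIR; log2 difference 2.03, SE 0.48; limma, adjusted p = 0.0248). *Stmn2*, a tubulin-binding protein of growth cones, held 119, 254 and 201 against 18.6 and 58.1. RISDD and SDDIR did not overlap in these genes.

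*Cntn2*, an axonal adhesion molecule, went the other way, with 1519 and 2782 counts in SDDIR and 348, 164 and 111 in RISDD, both far below the 26918 to 40092 of SDD. *Tubb3*, neuronal tubulin, held 1220 and 1868 against 773, 733 and 526, and *Dcx*, doublecortin, 28.8 and 94.8 against 19.8, 16.2 and 1.58. Neither passed (limma, adjusted p 0.0605 and 0.128; 0.0109 and 0.07 without NIL C), and both were chosen after their values were seen. The neuron markers, a list that holds both, summed to 1816 to 1984 in RISDD and 2230 and 3235 in SDDIR. Their sum in SDD was 4581.5 to 6323. Of 7 tested, *Stmn2* was higher and 0 were lower (4.56% and 4.91% of all tested genes), with a median log2 difference of -1.14. For these markers edgeR called 1 higher, and DESeq2 called 2 higher and 2 lower. *Nefl* and *Nefm* were not called without any one of the RISDD or SDDIR libraries (0.0618 to 0.191), and *Stmn2* not without SDD C, RISDD B, RISDD C or SDDIR A (0.0502 to 0.277). The counts of pan-neuronal genes, higher and lower, were 1 and 1 without SDDIR A, 2 and 1 without SDDIR B, 4 and 1 without RISDD A or C, 3 and 1 without RISDD B and 14 and 7 without NIL C.

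Of 18 tested motor neuron genes 2 were higher in RISDD and 5 lower (4.56% and 4.91% of all tested genes). Their median log2 difference was -0.41. The counts, higher and lower, were 1 and 5 without RISDD A and 0 and 4 without RISDD B or C. *Slc5a7*, the choline transporter of cholinergic neurons, held 967, 793 and 842 counts in RISDD, 293 and 236 in SDDIR and 259 to 463 in SDD (3.28-fold; limma, adjusted p = 0.0345). *Gfra1*, a GDNF receptor of motor neurons, held 4226 and 5232 in SDDIR and 1308, 1289 and 1427 in RISDD, *Slit3*, a guidance ligand, 1345 and 1157 against 319, 356 and 327, and *Chodl*, a marker of fast motor neurons, 166 and 104 against 21.0, 10.1 and 18.2. The last 3 were higher in SDD, where *Chodl* held 3812 to 12572. *Slc5a7* was not called without trend and robust moderation, SDD B, SDD C, or any one RISDD or SDDIR library (0.0536 to 0.217; 1.52e-05 to 0.217 over all alternatives), and *Chodl* not without SDDIR A (0.0864).

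Of the 8 defining markers of motor neurons, 6 were tested, among them the delivered factors *Isl1* and *Lhx3*, and *Slc5a7* alone passed. Without any one of the RISDD or SDDIR libraries none did. *Chat*, choline acetyltransferase, was at 0 in every SDD, SDDIR and RISDD library. *Mnx1*, the gene of the Hb9 reporter, held 12.7 and 7.11 counts in SDDIR, 14.8, 5.06 and 2.37 in RISDD and 64.8 to 127 in SDD, and overlapped between the HRAS groups. *Slc18a3*, the vesicular acetylcholine transporter, was at 0 in both SDDIR libraries and at 0 to 1.24 in RISDD. Of 17 proneural and neuronal transcription factors 3 were lower and 0 higher (limma; 4 and 1 at an unadjusted p under 0.05, 3 and 0 with edgeR, 4 and 0 with DESeq2). Among all tested genes 4.91% were called lower and 4.56% higher. *St18*, a zinc-finger factor, held 127 and 114 counts in SDDIR and 38.3, 36.4 and 15.8 in RISDD. *Ebf3*, a differentiation factor, held 708 and 819 against 466, 375 and 412. Without SDDIR A none of the 17 was called, and without SDDIR B 1 was higher and 0 lower.

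Of 30 WNT genes, 3 were higher and 8 lower (4.56% and 4.91% of all tested genes). Without SDDIR A 1 was higher and 3 lower, and without SDDIR B 1 and 1. *Dkk2*, a WNT modulator, held 610, 607 and 542 counts in RISDD against 156 and 225 in SDDIR, and *Sfrp2*, a secreted WNT binder, 195, 141 and 137 against 32.2 and 33.2. *Fzd1*, a WNT receptor, held 2150 and 2590 in SDDIR and 1009, 899 and 744 in RISDD, and *Nkd1*, a feedback inhibitor, 274 and 363 against 139, 84.9 and 91.7. *Axin2*, a transcriptional target of the pathway, was also lower (log2 difference -1.20). *Sfrp2* was not called with edgeR, without SDD B or C, or without any one RISDD or SDDIR library (limma, adjusted p up to 0.192), *Fzd1* without SDDIR B (0.0509) and *Nkd1* without SDDIR A or B (0.0502 to 0.0948).

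*Heyl*, a NOTCH target, held 641 and 646 counts in SDDIR, 140, 107 and 184 in RISDD and 144 to 268 in SDD, so that only SDDIR was high (log2 difference -2.19, SE 0.30; limma, adjusted p = 0.00229). *Spp1*, osteopontin, held 110740, 126380 and 133290 counts in RISDD, 32495 and 25783 in SDDIR and 5479 to 9525 in SDD. *Csf1*, the macrophage growth factor, held 567 and 446 in SDDIR and 199, 231 and 208 in RISDD. *Robo1*, the SLIT receptor, was lower in RISDD alone, with 1846, 1615 and 1944 counts against 6341 and 7583 in SDDIR and 5977 to 7301 in SDD (log2 difference -1.95, SE 0.14; limma, adjusted p = 0.000127). *Heyl*, *Spp1* and *Robo1* passed under every alternative, and *Csf1* not without SDDIR A (0.0577).

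Of 25 cholesterol synthesis genes 1, *Hsd17b7*, was higher, with 1385, 1523 and 1383 counts in RISDD, 864 and 772 in SDDIR and 344 to 397 in SDD (limma, adjusted p = 0.0128). Among all tested genes 4.56% were called higher. The median log2 difference of the cholesterol list was 1.44 in SDDIR against SDD, 1.73 in RISDD against SDD and 0.20 between RISDD and SDDIR. *Hsd17b7* was not called without RISDD B, SDDIR A or SDDIR B (0.0579 to 0.117), and without NIL C 10 genes of the list were higher. Of 30 ribosome biogenesis genes 0 passed (limma; 9 higher at an unadjusted p under 0.05, 0 with edgeR, 2 with DESeq2, 8 without NIL C), and in all 30 the 3 RISDD libraries lay above both SDDIR libraries, as they did for 30.8% of all tested genes. The list's median log2 difference was 0.22 in SDDIR against SDD, 0.62 in RISDD against SDD and 0.41 between RISDD and SDDIR. *Ncl*, nucleolin, held 22054, 23193 and 22921 against 18535 and 19028 (1.21-fold). Mitochondrially encoded genes did not pass (0 of 13 by limma, 0 at an unadjusted p under 0.05, 0 by edgeR and DESeq2) and their median was 0.11.

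**Figure D5:**
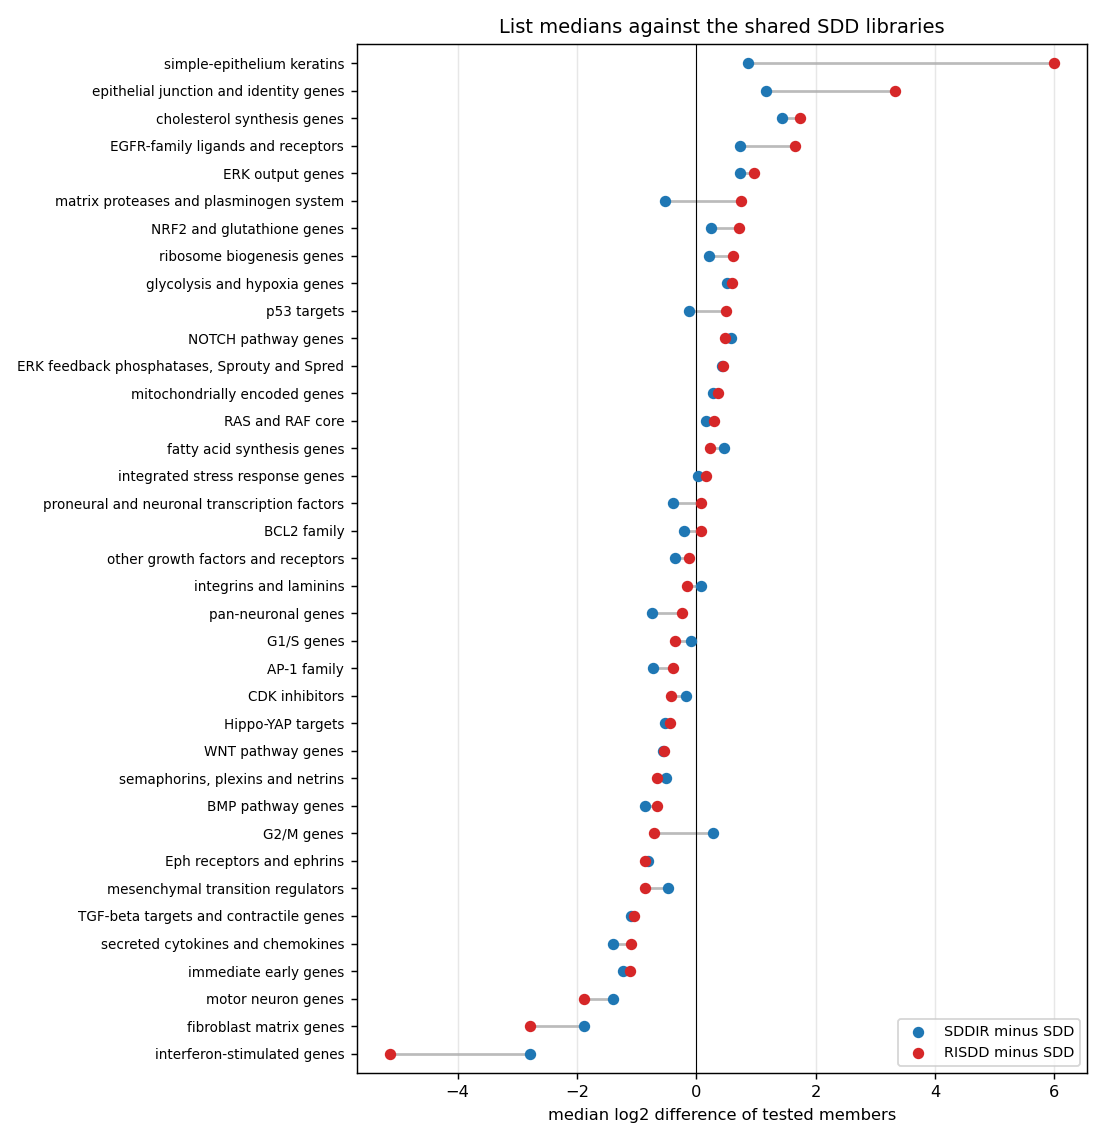
Median log2 difference of the tested members of each list, SDDIR minus SDD (blue) and RISDD minus SDD (red), joined by a line. Both are measured against the same 3 SDD libraries, and a few lists, among them matrix proteases, p53 targets and G2/M genes, have medians on opposite sides of 0.

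Set side by side against the shared SDD libraries, the lists fell into different orders of level. The interferon list had medians of -2.78 in SDDIR and -5.13 in RISDD, and the fibroblast matrix list -1.88 and -2.78, so that RISDD was farther from SDD in the same direction. The G2/M list had 0.28 and -0.72, the p53 list -0.12 and 0.50, and the protease list -0.53 and 0.75, with RISDD and SDDIR on either side of SDD. The immediate early list, at -1.24 and -1.12, and the ERK feedback list, at 0.42 and 0.44, were nearly level. These pairs share the SDD libraries, so their likeness is not counted as a result.

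Of 4 tested endothelial markers 3 were higher in RISDD (4.56% of all tested genes), edgeR called 2, and none was called without any one of the RISDD or SDDIR libraries. *Cdh5*, VE-cadherin, held 539, 419 and 419 counts in RISDD, 129 and 142 in SDDIR and 35.0 to 72.5 in SDD. *Emcn* was at 0 in every SDD, SDDIR and RISDD library and *Erg* at 0 in all 3 RISDD libraries. The 8 markers summed to 534 to 660 in RISDD and 170 to 179 in SDDIR, and *Cdh5* made up most of it. The call for *Cdh5* was lost without any one of the RISDD or SDDIR libraries (limma, adjusted p 0.0683 to 0.174; 3.31e-05 to 0.174 over all alternatives).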

How the data were processed

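Poly(A) RNA of sorted cells was sequenced as directional libraries, per the labels' protocols. Per the submitters' processing notes, Trim Galore 0.6.10, Salmon 1.10.3 and the GRCm39 build were used. The step from transcripts to scaled gene values was not given in the sources used here. Deposited by the authors as signal, the values are gene counts divided by a constant per library. All values were whole multiples of that constant (100% at a tolerance of 0.001), so the reads behind the deposited counts were recovered (14872639 to 29815073 per library). One heading, SDDIR B, stood on 2 columns identical in all 23077 rows. It was used once. Whether it is replicate B or C cannot be settled here.

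A gene was tested where 2 or more of the 11 libraries reached 10 (14556 genes; 8521 were left out). One limma 3.58.1 fit (R 4.3.3) held all 4 groups, on log2(value + 1), with intensity trend and robust moderation. Fold changes are on that scale and understate low genes. A gene passed at a Benjamini-Hochberg adjusted p under 0.05 over all tested genes. edgeR 4.0.16 and DESeq2 1.42.0 were run on the recovered reads as alternatives. The fit was tried on simulated data with equal spread in all groups. That trial cannot show how an outlying library such as NIL C acts. RefSeq promoter windows (GRCm38.p6) were matched by symbol. Of 889 list genes 885 were found and 831 tested, and lists are described by counts and medians alone. Named genes are the delivered genes, the 12 largest passing differences each way with a mean of at least 100 and no overlap, and up to 4 passing members per list (2 of the highest mean where none passed). The groups, lists and rules were chosen with earlier results of these data known.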

Additional observations from a re-analysis of the deposited data

How the results depend on the processing

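Of the 140 named genes 121 passed. In 24 alternatives none of these 121 changed direction, and 41 of them passed in every alternative. That the direction held is no support, because leaving out a library cannot turn round a difference between groups that do not overlap. Other settings, such as those of moderation, leave the difference itself as it was. Depending on the setting, 1379 changed genes became 4952 with only SDDIR and RISDD fitted, 4180 with the NIL group left out and 2255 with DESeq2. Leaving out 1 library gave 302 (SDDIR A) to 4190 (NIL C), and all 1379 calls were kept without NIL C. Genes changed at least 2-fold (911) became 1415 with only those 2 groups fitted, 1374 with NIL left out, and 290 to 1366 with 1 library left out. Higher genes (664) were 117 without SDDIR A to 2120 without NIL C, 2690 with only the 2 groups fitted, 2121 with NIL left out and 1093 with DESeq2. Lower genes (715) were 185 without SDDIR A to 2070 without NIL C, 2262 with only the 2 groups fitted, 2059 with NIL left out and 1162 with DESeq2. The share of calls that were higher, 48.15% here, was 38.7% without SDDIR A. edgeR called 1318 genes. With SDDIR at 2 libraries, leaving out 1 leaves a lone library assumed to vary like the others, and 77 (SDDIR A) or 59 (SDDIR B) of 121 named calls were lost. Letters A and B are shared by the groups but do not pair them: the deviations of same-letter libraries correlated at 0.0017 (A) and 0.12 (B). With the letter as a replicate block 1429 genes changed, 971 at least 2-fold. Counts of a few reads limit genes near 0 in one group.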

Other observations

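Gene families outside the lists were added after their values were seen, so their counts describe and support nothing further. Of 13 tested keratins 7 were higher in RISDD, and of 12 tested genes of the cornified envelope and skin proteases 8 were higher and 0 lower (4.56% of all tested genes were higher). Without SDDIR A 2 keratins and 4 of the cornified and protease genes were called, and without SDDIR B 5 and 5. *Krt6a*, a keratin of stressed epidermis, held 161, 246 and 402 counts in RISDD against 10.2 and 19.0 in SDDIR and 0 in SDD. *Sprr1a*, a precursor of the cornified envelope, held 674, 1093 and 1153 against 173 and 129. All 4 tested metallothioneins, which bind zinc and copper, were higher. *Mt2* held 2565, 3161 and 2811 counts in RISDD against 779 and 758 in SDDIR, near the SDD mean of 2412, and none of the 4 was called without SDDIR A. Of 16 granin and neuropeptide genes 7 were higher, among them *Calcb*, a calcitonin gene-related peptide, with 164, 174 and 162 counts against 7.62 and 7.11 (again 0 of 16 called without SDDIR A).

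Of 19 retinoid genes 6 were higher and 1 was lower (4.56% and 4.91% of all tested genes). *Aldh1a3*, an enzyme that makes retinoic acid, held 5355, 6089 and 6005 counts in RISDD against 445 and 740 in SDDIR and a mean of 98.9 in SDD (limma, adjusted p = 0.000508). *Cyp26b1*, which degrades retinoic acid, held 220, 375 and 292 against 72.8 and 83.0, and *Crabp1*, a cellular carrier of retinoic acid, was lower, with 5585, 4883 and 5653 against 12544 and 17353. Of 37 tested HOX genes 5 were lower (4.91% of all tested genes) and 0 higher, and 4 of the 5 lie in the HOXD cluster. *Hoxd13*, the last gene of that cluster, held 636 and 691 counts in SDDIR against 176, 228 and 315 in RISDD, and no HOX gene was called lower without SDDIR B. Among sodium and calcium channel genes *Cacng7* was lower, with 378 and 330 counts in SDDIR against 89.0, 92.0 and 68.0, and *Scn9a*, a channel of sensory neurons, was higher, with 390, 275 and 268 against 33.0 and 33.2.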
